A study of Mus musculus with 72 samples.

Results

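The oligoadenylate synthetase (OAS) family was followed through 6 tissues of EGFR DEL19 mice given 1 of 3 genetic circuits. Its members were taken as a list of 8 genes, Oas1a, Oas1b, Oas1c, Oas1g, Oas2, Oas3, Oasl1 and Oasl2, by their GENCODE M21 symbols, and all 8 were found among the 36047 mouse genes of each tissue table. The mice carry a human EGFR transgene with the DEL19 mutation, and the labels give doxycycline for 25 days before treatment. All circuits are DNA constructs with a CMV promoter. CMV-GE11-siRE encodes an siRNA against EGFR together with GE11, a peptide that binds EGFR; CMV-siRE encodes the siRNA alone; CMV-scrR encodes a scrambled RNA and is the control. Every group, the control included, received 10 mg/kg intravenously every 2 days for 7 injections, and tissues were taken on day 14. Age, strain and sex were not used here, and no uninjected group was analysed here, so each level below is that of an injected mouse. Spleen, liver, lung, kidney, thymus and lung tumour had 4 libraries per circuit each, 72 in all. Whether the 4 libraries of a group are 4 animals is not stated in the labels, and p-values therefore measure the spread between these libraries. The same replicate codes recur in every tissue, and the labels do not say whether equal codes are the same animal. Results of different tissues are therefore not taken as independent.

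OAS enzymes sense double-stranded RNA. When bound to it, the catalytic members join ATP into short oligoadenylates, second messengers that lead to the breakdown of viral and cellular RNA. The genes are transcribed at a low level in most tissues and are induced by interferons, which makes the family a common readout of interferon signalling in spleen, liver and lung. In mouse, Oas1a and Oas1g are catalytic small synthetases, whereas Oas1b is a flavivirus resistance gene that is truncated in most laboratory strains. Oas2 and Oas3 are larger synthetases, Oas3 being the one that prefers long double-stranded RNA. Oasl1 and Oasl2 carry ubiquitin-like domains, and Oasl1 is known in mouse for restraining the translation of Irf7, a master factor of interferon transcription.

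All 8 genes lie on chromosome 5 (GRCm38, GENCODE M21) in 2 groups. Oas2 (120730333 to 120749853, minus strand), Oas3 (120753098 to 120777661, minus), Oas1c (120800194 to 120812514, minus), Oas1b (120812635 to 120824163, plus), Oas1g (120876142 to 120887613, minus) and Oas1a (120896256 to 120907521, minus) fill 177189 bases. Oasl2 (114896936 to 114912234, plus) and Oasl1 (114923240 to 114937915, plus) fill 40980 bases. Oas1b is annotated as a polymorphic pseudogene and the other 7 as protein coding. Of the 50-base stretches of the Oas1a exons, 57.6% also occur in Oas1g, and 54.1% of those of Oas1g occur in Oas1a, so the division of reads between these 2 genes is uncertain. The other members share at most 1.35% of such stretches.

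RefSeq promoter sequence was at hand for 6 of the 8 members, not for Oas1b and Oas2. The 130 bases before the start site are shown for the members whose values are described most closely, with every match to GAAANNGAAA, the core letters of the element through which interferons act, in capitals; both strands were searched and matches may overlap.
Oas1a: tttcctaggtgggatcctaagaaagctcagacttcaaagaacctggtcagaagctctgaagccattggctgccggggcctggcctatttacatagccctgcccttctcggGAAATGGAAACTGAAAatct
Oas1g: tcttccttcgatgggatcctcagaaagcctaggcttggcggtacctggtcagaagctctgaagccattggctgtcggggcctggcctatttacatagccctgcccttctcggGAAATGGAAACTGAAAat
Oas3: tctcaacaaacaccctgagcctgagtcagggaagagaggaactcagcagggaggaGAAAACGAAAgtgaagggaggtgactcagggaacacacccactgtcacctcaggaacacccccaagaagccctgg
Oas1c: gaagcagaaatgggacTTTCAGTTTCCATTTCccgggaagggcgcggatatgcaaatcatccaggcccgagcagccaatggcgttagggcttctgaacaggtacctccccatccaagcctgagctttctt
Oasl2: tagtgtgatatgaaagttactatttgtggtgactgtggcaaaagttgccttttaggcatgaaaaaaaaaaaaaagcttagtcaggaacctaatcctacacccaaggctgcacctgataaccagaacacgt
These windows are at chr5:120907526-120907655, chr5:120887614-120887743, chr5:120777660-120777789 and chr5:120812515-120812644 on the minus strand and at chr5:114896804-114896933 on the plus strand (GRCm38.p6). Oas1a and Oas1g each held a pair of overlapping matches, between -20 and -5 in Oas1a and between -18 and -3 in Oas1g, and their promoters of 300 bases were 85.3% identical. Oas3 held 1 match at positions -75 to -66. In Oas1c the pair of matches lay on the opposite strand, between -114 and -99. No match was present in the 300 bases around the start sites of Oasl1 and Oasl2. Of all 32851 promoters of that length, 3.44% held a match, against 4 of the 6 from the family; a match is a description of letters and not a binding site.

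The values are the authors' normalized gene values, in which each tissue table was scaled on its own. An organ library totalled between 16.9 M and 21.4 M (M for mega), a tumour library between 5.87 M and 43.8 M, and 15523 to 21522 genes were above 0. All 8 members passed the filter on low values (4 or more of 12 libraries at 10 or above) in every tissue. The tumour libraries stood apart in their mitochondrial RNA, which made up 8.04% to 37.9% of the column total with CMV-GE11-siRE, 45.0% to 73.1% with CMV-siRE and 63.1% to 71.4% with CMV-scrR. In kidney and thymus, replicate 4 of CMV-GE11-siRE had mitochondrial shares of 3.69% and 0.558%, below those of the other libraries of its tissue. Lung epithelial, hepatocyte, kidney tubule, B cell and thymocyte markers were present in the tissues named for them. Ddx3y, a gene of the Y chromosome, was at 330 to 422 in 4 tumour libraries (replicate 2 of each circuit and CMV-siRE replicate 4) and at 0 to 9.59 in the other 8; no organ library was above 22.9. Since these are bulk libraries, fewer cells of a type and less RNA per cell cannot be told apart.

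Under the control circuit, spleen had the highest level of 7 of the 8 members. Levels were compared between genes per kb of all annotated exons of the gene, merged, and per 1000000 of the column total. They are a description without a test because the tables were scaled separately. In CMV-scrR spleen, Oas1a was at 54.7 ± 24.2 (SD, n = 4), Oasl2 at 41.3 ± 13.2, Oas2 at 38.7 ± 17.0 and Oas3 at 31.0 ± 10.4. Oasl1 and Oas1b followed at 23.1 ± 12.6 and 22.2 ± 2.75, then Oas1g at 13.1 ± 5.76 and Oas1c at 7.38 ± 1.32. On this scale Oas1a was first in spleen and Oas1c last of the 8. The order between genes depends on the length used. The merged exons of Oasl2 hold 6374 bases, against 3123 in the transcript used for the shared stretches. Those of Oas3 hold 7069 against 4720, while both lengths are 1885 for Oas1a. The first place of Oas1a therefore holds for merged exons alone.

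Spleen was highest for 7 members, and lung for Oasl2, whose level of 45.2 ± 24.4 in lung overlapped that in spleen. Spleen stood clear of the next tissue for Oas1b, Oas1c and Oas3; for Oas1a, Oas1g, Oas2 and Oasl1 its libraries overlapped those of the next tissue. Oasl1 was the member with liver in second place, at 18.7 ± 6.73 against 6.11 ± 4.59 in lung. Thymus came second for Oas1b (13.2 ± 2.51) and Oas1c (3.04 ± 0.993), in both cases overlapping lung. With CMV-scrR, tumour was lowest for all 8, from 0.489 ± 0.183 for Oas1c to 6.80 ± 5.0 for Oas1a, and stood clear of the tissue above it for Oas1b, Oas1g, Oas2 and Oasl1. This order held for the control circuit. Over the libraries of all circuits, tumour was lowest for Oas1a, Oas2, Oasl1 and Oasl2 and not for Oas1b, Oas1c, Oas1g and Oas3. With CMV-GE11-siRE, Oas1g was at 7.58 ± 4.89 in tumour and 4.62 ± 0.838 in spleen, and Oasl1 at 0.633 ± 0.326 and 12.3 ± 2.38. The mitochondrial share of the CMV-scrR tumours, given above, enters the column total by which these levels are divided, and its part in the low tumour levels was not tested.

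**Figure D1:**
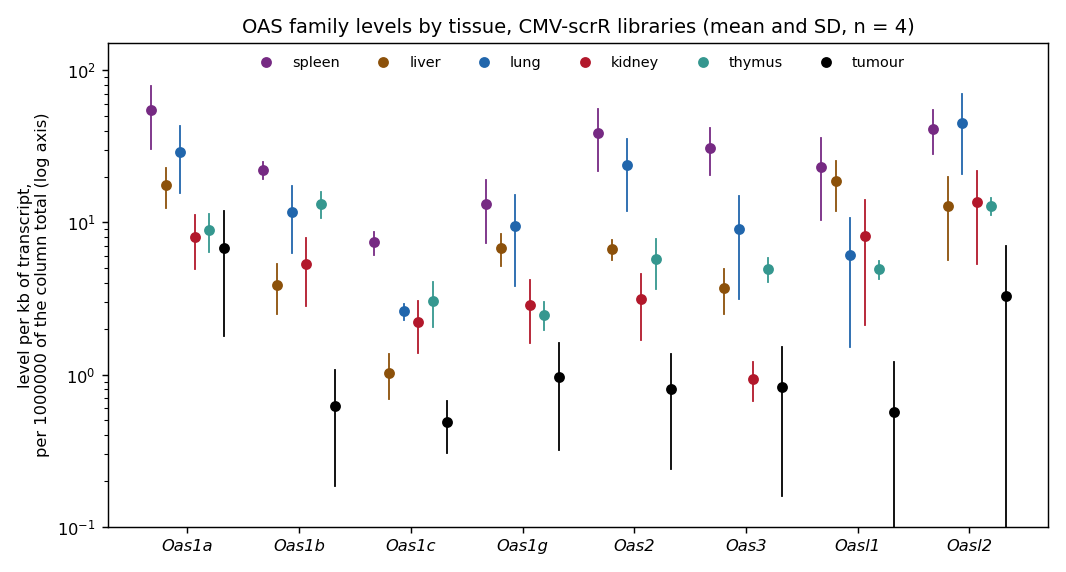
Mean level of each OAS member in the 4 CMV-scrR libraries of each tissue, on a log axis. Levels are per kb of merged annotated exons (named transcript on the axis) and per 1000000 of the column total. Vertical lines are the SD, and those that reach the lower edge extend below 0.1. Spleen (purple) leads for 7 members and tumour (black) is lowest for all 8.

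The circuits were compared next, beginning with spleen, where both EGFR circuits were below the control for most members. Differences are given as log2 of the first group over the second with the standard error of the limma fit over the 12 libraries of a tissue, with p-values adjusted by Benjamini-Hochberg over all tested genes and a threshold of 0.05. The 2 comparisons with the control use the same 4 CMV-scrR libraries, so they are given side by side and not as 2 independent results. Library values are listed in the order of replicates 1 to 4. Where groups are said not to overlap without a share of all genes beside it, this only describes the values listed.

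Oasl2, the ubiquitin-like member with synthetase activity in mouse, had spleen values of 1294, 1488, 1901 and 2040.5 with CMV-GE11-siRE, 1164, 1085, 1058 and 1203 with CMV-siRE and 7891, 4492, 5377 and 3485 with CMV-scrR. All 8 libraries of the EGFR circuits lay below all 4 control libraries, and the CMV-siRE libraries lay below those of CMV-GE11-siRE as well. The difference was -1.62 ± 0.20 (adjusted p = 0.00252) for CMV-GE11-siRE and -2.17 ± 0.20 (adjusted p = 0.000129) for CMV-siRE, which is 3.07-fold lower with CMV-GE11-siRE and 4.50-fold lower with CMV-siRE.

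Oas3, the synthetase for long double-stranded RNA, had spleen values of 1429.9, 2247, 2164 and 1491 with CMV-GE11-siRE, 1216, 1059, 1111 and 1149 with CMV-siRE and 6776, 3800.2, 4191 and 2923 with CMV-scrR. The groups did not overlap, with CMV-siRE lowest and CMV-scrR highest. Oas3 fell by 1.23 ± 0.21 (adjusted p = 0.011) with CMV-GE11-siRE and by 1.89 ± 0.21 (adjusted p = 0.000404) with CMV-siRE on the log2 scale. Oas2 had 1001, 990.1, 1193 and 1483 with CMV-GE11-siRE, 1075, 944, 1238 and 1439 with CMV-siRE and 5949.6, 2580.0, 2989.8 and 2415 with CMV-scrR. Here the circuits against EGFR covered the same range, and both lay below every control library, at -1.49 ± 0.24 (adjusted p = 0.00823) with CMV-GE11-siRE and -1.48 ± 0.24 (adjusted p = 0.0042) with CMV-siRE.

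The small catalytic synthetases Oas1a and Oas1g were lower as well. Oas1a had spleen values of 744, 950.1, 914 and 942 with CMV-GE11-siRE, 944, 892, 869.7 and 1194 with CMV-siRE and 3541, 1483, 1935 and 1379.7 with CMV-scrR, so that control replicate 1 was far above the other 3 and the remaining control libraries still cleared the EGFR circuits. Oas1a differed by -1.13 ± 0.23 (adjusted p = 0.0196) for CMV-GE11-siRE and by -1.0 ± 0.23 (adjusted p = 0.0269) for CMV-siRE. Oas1g, its near copy, had 171, 185, 252 and 216 with CMV-GE11-siRE, 205, 203, 182 and 266 with CMV-siRE and 1034, 389, 618 and 436 with CMV-scrR, again without overlap. Its differences were -1.49 ± 0.25 (adjusted p = 0.00989) with CMV-GE11-siRE and -1.43 ± 0.25 (adjusted p = 0.00641) with CMV-siRE.

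Oasl1 had spleen values of 499, 573, 775 and 597 with CMV-GE11-siRE, 454, 477, 580.5 and 522 with CMV-siRE and 2287, 811, 922 and 849 with CMV-scrR; the control libraries other than replicate 1 were only just above the highest CMV-GE11-siRE library. It passed the test for CMV-siRE at -1.12 ± 0.27 (adjusted p = 0.0292) and not for CMV-GE11-siRE at -0.86 ± 0.27 (adjusted p = 0.0699). Oas1b had 577, 555, 768 and 655 with CMV-GE11-siRE, 571, 438, 564 and 487 with CMV-siRE and 1052, 957, 776 and 759 with CMV-scrR, with an overlap between CMV-GE11-siRE and the control, and passed for CMV-siRE alone, at -0.78 ± 0.14 (adjusted p = 0.00754) against -0.47 ± 0.14 (adjusted p = 0.065) for CMV-GE11-siRE. Oas1c stayed between 222 and 464 in all 12 libraries, and neither of its differences passed, at -0.43 ± 0.16 (adjusted p = 0.116) with CMV-GE11-siRE and -0.22 ± 0.16 (adjusted p = 0.468) with CMV-siRE.

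In all, 5 of 8 members were called lower in spleen with CMV-GE11-siRE, where 3.47% of the tested genes were called lower, and 7 of 8 with CMV-siRE, where 2.88% were. The median difference over the 8 was -1.18 with CMV-GE11-siRE and -1.28 with CMV-siRE, beside medians over all tested genes within 0.01 of 0. Without CMV-scrR replicates 1 and 3, the 2 control libraries with the highest family values, the counts were 2 with CMV-GE11-siRE (Oas2 and Oasl2, the last at -1.26) and 4 with CMV-siRE (Oas1g, Oas2, Oas3 and Oasl2, the last at -1.81). Oas1a was lost for CMV-GE11-siRE when replicate 1 or 3 of that circuit was left out. For CMV-siRE, Oas1a was lost without CMV-siRE replicate 1, 2 or 3 or CMV-scrR replicate 3, and Oasl1 without any 1 of the 4 CMV-siRE replicates.

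**Figure D2:**
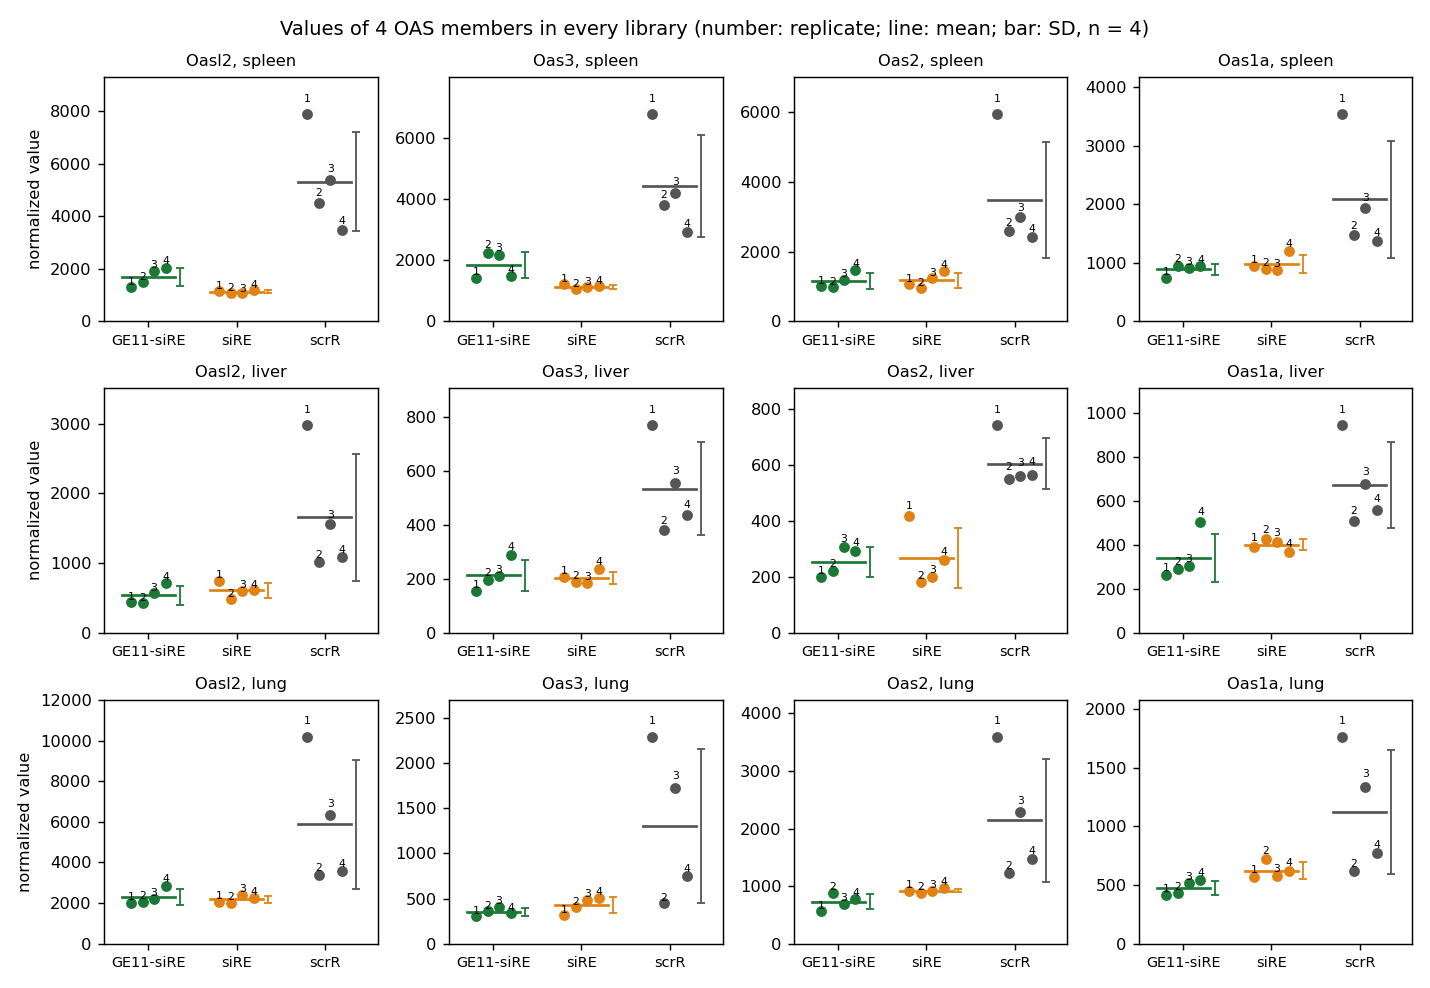
Normalized values of Oasl2, Oas3, Oas2 and Oas1a in every library of spleen, liver and lung; points are libraries with their replicate number, horizontal lines are means and bars the SD (n = 4). In spleen and liver the EGFR circuits lie below all 4 CMV-scrR libraries for these genes, and CMV-scrR replicate 1 is the highest library in each panel.

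In liver, 5 members were lower with CMV-GE11-siRE and 4 with CMV-siRE. Oasl2 had liver values of 439, 427, 567 and 715 with CMV-GE11-siRE, 742, 483, 596 and 606 with CMV-siRE and 2973, 1007, 1555 and 1078 with CMV-scrR, and the highest library of either EGFR circuit was below the lowest control library. It differed by -1.51 ± 0.28 (adjusted p = 0.0124) for CMV-GE11-siRE and -1.32 ± 0.28 (adjusted p = 0.0224) for CMV-siRE. Oas3 had 154, 197, 209.6 and 289.9 with CMV-GE11-siRE, 207, 187, 183 and 235 with CMV-siRE and 769, 380.3, 555 and 436 with CMV-scrR, also without overlap, at -1.31 ± 0.22 (adjusted p = 0.00705) with CMV-GE11-siRE and -1.35 ± 0.22 (adjusted p = 0.0061) with CMV-siRE. For Oas2 the values were 197, 219.6, 306 and 292 with CMV-GE11-siRE, 417, 182, 199.9 and 260.1 with CMV-siRE and 739.7, 549, 560.0 and 564 with CMV-scrR. Control replicate 1 stood above the other 3 controls, which were close together, and the differences were -1.26 ± 0.23 (adjusted p = 0.0107) with CMV-GE11-siRE and -1.25 ± 0.23 (adjusted p = 0.0132) with CMV-siRE.

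Oas1g had liver values of 103, 124, 121 and 224 with CMV-GE11-siRE, 199, 139.9, 157 and 176 with CMV-siRE and 423, 271, 338 and 255 with CMV-scrR, with both EGFR circuits below the control, at -1.20 ± 0.23 (adjusted p = 0.0133) with CMV-GE11-siRE and -0.92 ± 0.23 (adjusted p = 0.0401) with CMV-siRE. Oas1a had 264, 288, 304 and 503 with CMV-GE11-siRE, 391, 427, 413 and 367 with CMV-siRE and 941, 508, 675 and 559 with CMV-scrR. CMV-GE11-siRE replicate 4 came close to the lowest control library, and Oas1a passed for CMV-GE11-siRE at -0.99 ± 0.21 (adjusted p = 0.0187) but not for CMV-siRE at -0.71 ± 0.21 (adjusted p = 0.0711). The 3 remaining members did not pass: Oas1b was at -0.73 ± 0.27 with CMV-GE11-siRE and -0.37 ± 0.27 with CMV-siRE, Oasl1 at -0.43 ± 0.20 with CMV-GE11-siRE and -0.54 ± 0.20 with CMV-siRE, and Oas1c at -0.14 ± 0.42 with CMV-GE11-siRE and -0.11 ± 0.42 with CMV-siRE. Oas1c was the least abundant member in liver, between 20.2 and 107.

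Thus 5 of 8 members were called lower in liver with CMV-GE11-siRE, where 2.04% of the tested genes were, and 4 of 8 with CMV-siRE, where 1.97% were. The median over the 8 was -1.09 with CMV-GE11-siRE and -0.81 with CMV-siRE, and that of all genes was again within 0.01 of 0. Without CMV-scrR replicates 1 and 3, 0 members passed in either comparison, and the differences of the members called above were -0.70 to -1.16 for CMV-GE11-siRE and -0.66 to -1.15 for CMV-siRE. Leaving out CMV-siRE replicate 2 or 3 or CMV-scrR replicate 3 reduced the CMV-siRE count to 2 (Oas2 and Oas3). Oas1g was also lost without CMV-siRE replicate 1 or 4 or CMV-scrR replicate 1 or 2, and Oas1a was lost for CMV-GE11-siRE without its replicate 1 or 2.

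In lung the control libraries were uneven. Oasl2 had lung values of 2019, 2068, 2213 and 2854 with CMV-GE11-siRE, 2062, 2031, 2388 and 2266 with CMV-siRE and 10184, 3375, 6338 and 3588 with CMV-scrR: control replicates 1 and 3 were high, and replicates 2 and 4 were just above the EGFR circuits. Oas3 had 308, 362, 411 and 342 with CMV-GE11-siRE, 321, 402, 484 and 510.1 with CMV-siRE and 2289, 447, 1718 and 747 with CMV-scrR, where control replicate 2 fell within the range of CMV-siRE. Oas2 had 575, 876, 696 and 776 with CMV-GE11-siRE, 921, 888, 917 and 962 with CMV-siRE and 3594, 1231, 2295 and 1469 with CMV-scrR, with the EGFR circuits below all controls.

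Oasl2 with CMV-siRE was the 1 call in lung, at -1.22 ± 0.27 (adjusted p = 0.139) with CMV-GE11-siRE and -1.28 ± 0.27 (adjusted p = 0.035) with CMV-siRE. Oas2 was at -1.44 ± 0.25 (adjusted p = 0.101) with CMV-GE11-siRE and -1.09 ± 0.25 (adjusted p = 0.0512) with CMV-siRE, and Oas3 at -1.60 ± 0.38 (adjusted p = 0.189) with CMV-GE11-siRE and -1.34 ± 0.38 (adjusted p = 0.0907) with CMV-siRE. For the small synthetases, Oas1a had 416, 433, 514 and 542 with CMV-GE11-siRE, 569.9, 723, 578 and 623 with CMV-siRE and 1764, 617, 1337 and 771 with CMV-scrR. Its differences were -1.12 ± 0.25 (adjusted p = 0.153) with CMV-GE11-siRE and -0.73 ± 0.25 (adjusted p = 0.156) with CMV-siRE. Oas1g was at -1.29 ± 0.34 (adjusted p = 0.254) with CMV-GE11-siRE and -0.87 ± 0.34 (adjusted p = 0.203) with CMV-siRE, Oasl1 at -1.20 ± 0.35 (adjusted p = 0.324) with CMV-GE11-siRE and -0.99 ± 0.35 (adjusted p = 0.163) with CMV-siRE, and Oas1b at -0.57 ± 0.26 (adjusted p = 0.631) with CMV-GE11-siRE and -0.80 ± 0.26 (adjusted p = 0.131) with CMV-siRE. Oas1c was between 96.7 and 156 in every lung library, at -0.06 with CMV-GE11-siRE and -0.08 with CMV-siRE.

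The background in lung was 0.928% of genes called lower with CMV-siRE and 0% called with CMV-GE11-siRE, where limma called 0 of the 8 members. Groups did not overlap for 6 of 8 members with CMV-GE11-siRE (4.73% of genes in either direction) and for 2 of 8 with CMV-siRE (12.5%). At an unadjusted p under 0.05 there were 7 of 8 members in each comparison, where 7.9% of the genes reached it with CMV-GE11-siRE and 17.6% with CMV-siRE. The call of Oasl2 was lost without any 1 of the 4 CMV-siRE libraries, without CMV-scrR replicate 3, and without CMV-scrR replicates 1 and 3 together (-0.67). Without CMV-scrR replicate 2, a library with low family values, 4 members passed with CMV-GE11-siRE (Oas1a, Oas2, Oas3 and Oasl2) and 3 with CMV-siRE (Oas2, Oas3 and Oasl2); without CMV-scrR replicate 4, 1 member passed with CMV-GE11-siRE (Oas2) and 2 with CMV-siRE (Oas2 and Oasl2).

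**Figure D3:**
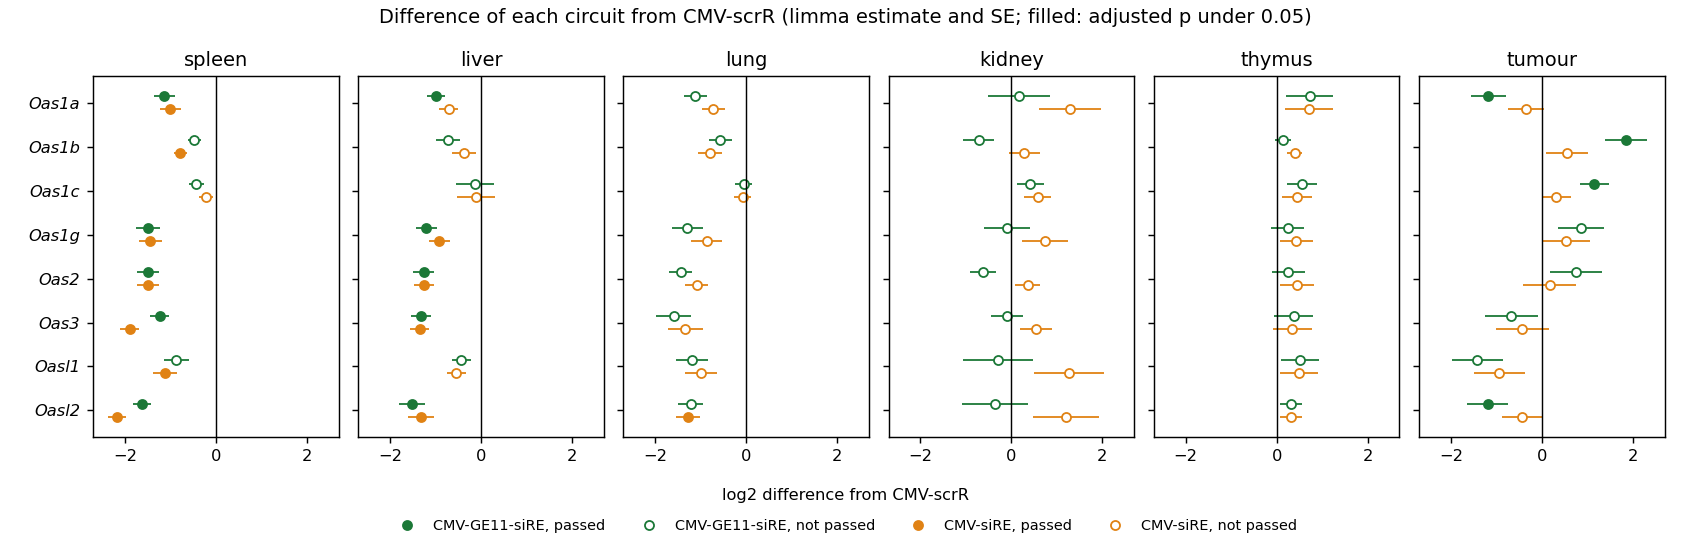
Log2 difference from CMV-scrR of each OAS member in 6 tissues for CMV-GE11-siRE (green) and CMV-siRE (orange), with the standard error of the limma fit; filled points passed an adjusted p of 0.05. In spleen, liver and lung all points lie left of 0 and those of Oas1c are nearest to it, whereas kidney and thymus have no filled point and tumour has filled points on both sides.

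Kidney values were split between libraries of the same circuit. Oasl2 had kidney values of 377, 2435, 354 and 4029.6 with CMV-GE11-siRE, 3755, 3343, 2079 and 3899 with CMV-siRE and 2823, 855, 1974 and 760.1 with CMV-scrR: within CMV-GE11-siRE, replicates 2 and 4 were high and replicates 1 and 3 lowest of all 12. Oasl1 showed the same split, with 75.7, 559, 93.6 and 1190.4 with CMV-GE11-siRE, 725, 708, 867 and 826 with CMV-siRE and 803, 172, 389 and 204 with CMV-scrR. So did Oas1a, with 107, 699, 99.7 and 1059.9 with CMV-GE11-siRE, 864, 495, 418 and 1008 with CMV-siRE and 439, 215, 261 and 202 with CMV-scrR. No member passed limma's test in the 3 kidney comparisons, and 0% of 15105 genes did. An unadjusted p under 0.05 was reached by 1 member (Oas2) for CMV-GE11-siRE against CMV-scrR, by 0 for CMV-siRE against CMV-scrR and by 2 (Oas1b and Oas2) for CMV-GE11-siRE against CMV-siRE, beside 8.06%, 9.84% and 3.97% of the genes. The differences were -0.72 to 0.41 for CMV-GE11-siRE against CMV-scrR, 0.29 to 1.29 for CMV-siRE against CMV-scrR and -1.57 to -0.17 for CMV-GE11-siRE against CMV-siRE.

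Oas2 did not follow that split: it had 161, 204, 116 and 153 with CMV-GE11-siRE, 269.5, 274, 313 and 389.6 with CMV-siRE and 432, 189.7, 236 and 172 with CMV-scrR. CMV-GE11-siRE lay below CMV-siRE without overlap, as for 1.81% of the genes, at -0.98 ± 0.28 (adjusted p = 0.999). The CMV-GE11-siRE libraries that were high for Oasl2 also differed in Dbp and Arntl, genes of the daily clock, which were chosen after their values were seen. Dbp, a clock output gene, had 78.8, 1321, 52.9 and 790.3 with CMV-GE11-siRE, 871, 1181, 2108 and 1096 with CMV-siRE and 57.6, 55.8, 109 and 76.3 with CMV-scrR, and Arntl, a core clock gene, had 610.1, 82.8, 675 and 116 with CMV-GE11-siRE, 104, 68.1, 30.2 and 52.9 with CMV-siRE and 554, 540.0, 553 and 591 with CMV-scrR. Per2, a further clock gene, did not divide the CMV-GE11-siRE libraries in this way. It had 235, 502, 468 and 480.3 with CMV-GE11-siRE and 534, 638, 765 and 457 with CMV-siRE. With CMV-scrR it had 417, 103, 1140 and 621. The part of these clock genes in the kidney values of the family was not tested.

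In thymus, CMV-GE11-siRE replicate 4 was the highest library of its circuit for 6 of 8 members. Oas1a had thymus values of 203, 421, 345 and 1771 with CMV-GE11-siRE, 351, 705, 349 and 574 with CMV-siRE and 311, 208, 400.3 and 271 with CMV-scrR, and Oas3 had 434, 717, 597 and 2183 with CMV-GE11-siRE, 642, 1217, 495 and 961 with CMV-siRE and 667, 472, 716 and 632 with CMV-scrR. CMV-GE11-siRE replicate 4 was the highest of the 12 for both, and its mitochondrial share was the low one given above. Oasl2 had 1509, 1642, 1433 and 2972 with CMV-GE11-siRE, 1522, 2411, 1379 and 2088 with CMV-siRE and 1498, 1191, 1541 and 1597 with CMV-scrR, with overlap between all groups. Differences were 0.13 to 0.72 for CMV-GE11-siRE and 0.32 to 0.70 for CMV-siRE against CMV-scrR. Limma called 0 members, where 0% of the genes were called with CMV-GE11-siRE and 0.00609% with CMV-siRE. At an unadjusted p under 0.05 there were 0 members with CMV-GE11-siRE (9.44% of the genes) and 1, Oas1b, with CMV-siRE (5.65%).

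**Figure D4:**
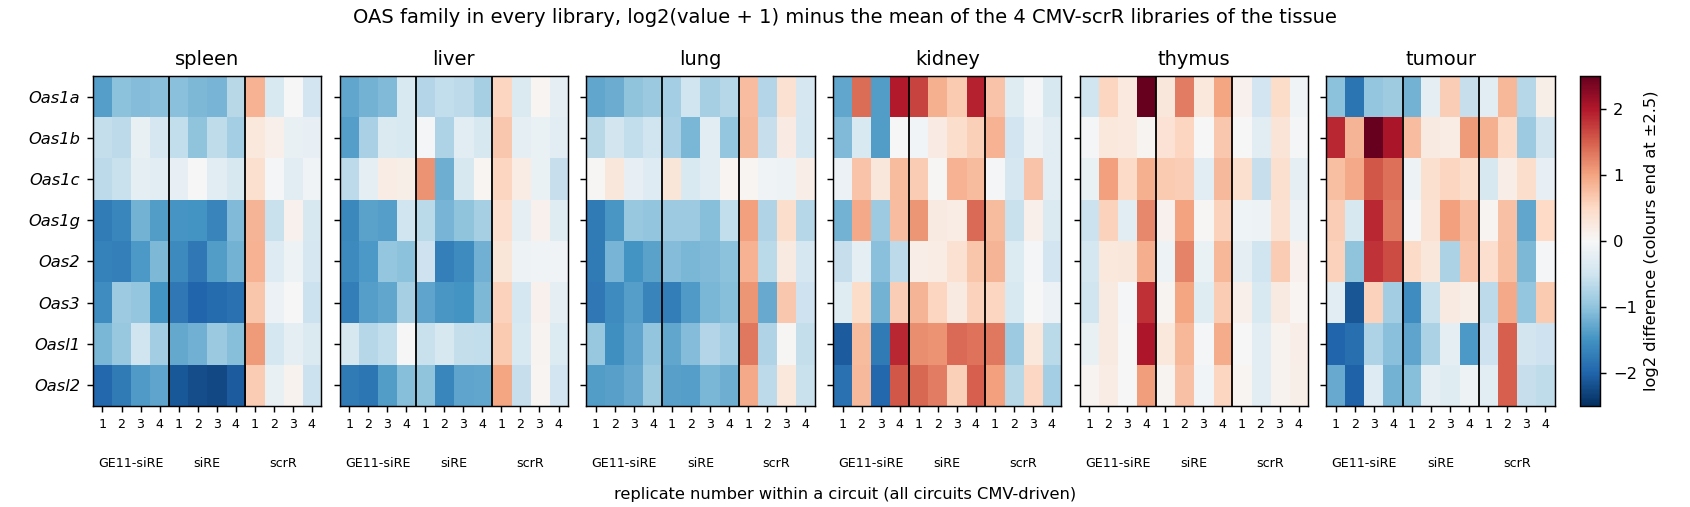
Colour shows log2(value + 1) of each OAS member in each of 72 libraries minus the mean of the 4 CMV-scrR libraries of that tissue, with libraries grouped by circuit and numbered by replicate. In spleen, liver and lung both EGFR circuits are mostly blue for all members but Oas1c; in kidney the CMV-siRE libraries are mostly red and the CMV-GE11-siRE libraries split, and in thymus CMV-GE11-siRE replicate 4 is among the reddest; in tumour Oas1b and Oas1c are red and Oasl1 and Oasl2 blue with CMV-GE11-siRE.

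In tumour the members went in opposite directions with CMV-GE11-siRE. Oas1b, the flavivirus resistance gene, had tumour values of 111, 53.4, 184 and 123 with CMV-GE11-siRE, 50.6, 34.2, 33.3 and 62.1 with CMV-siRE and 55.3, 41.3, 15.1 and 21.1 with CMV-scrR; 3 CMV-GE11-siRE libraries were above all others and replicate 2 was within the range of the rest. It was higher than with CMV-scrR by 1.84 ± 0.46 (adjusted p = 0.00658). Oas1c had 57.1, 64.9, 98.9 and 87.6 with CMV-GE11-siRE, 30.3, 44.5, 48.8 and 45.4 with CMV-siRE and 25, 37.6, 45.3 and 28.7 with CMV-scrR, with CMV-GE11-siRE above all 8 other libraries, and was higher by 1.15 ± 0.32 (adjusted p = 0.0113).

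Oas1a had tumour values of 156, 89.2, 163 and 172 with CMV-GE11-siRE, 140.4, 267, 489 and 213 with CMV-siRE and 265, 563, 195 and 354 with CMV-scrR, and CMV-GE11-siRE lay below all 4 control libraries. It was lower by 1.17 ± 0.39 (adjusted p = 0.0275) on the log2 scale. Oasl2 had 177, 104, 340.2 and 187 with CMV-GE11-siRE, 202, 363, 342 and 389.5 with CMV-siRE and 354, 1189.5, 283 and 271 with CMV-scrR, where control replicate 2 was far above the rest and replicate 3 of CMV-GE11-siRE lay within the control range, and its difference was -1.19 ± 0.45 (adjusted p = 0.0473). Oasl1 was close to the filter, with 6.7, 7.28, 16.8 and 13.7 with CMV-GE11-siRE, 11.2, 16.7, 25.2 and 10.3 with CMV-siRE and 20.3, 85.1, 21 and 20.3 with CMV-scrR, and missed the threshold at -1.42 ± 0.56 (adjusted p = 0.0544). Oas1g, Oas2 and Oas3 did not pass, at 0.86 ± 0.51, 0.75 ± 0.58 and -0.67 ± 0.59.

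These 2 higher and 2 lower calls stand beside 22.1% of the tumour genes called higher and 19.8% called lower in that comparison, so the family's share is near the background. The share of tumour genes without overlap is not given here, so the lack of overlap of Oas1a and Oas1c is a description alone. With CMV-siRE against CMV-scrR, limma called 0 of 8 members, where 0.256% of genes were called, with differences of -0.94 to 0.55; 0 members reached an unadjusted p under 0.05, which 21.4% of the genes did.

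The tumour calls moved with the scaling. The median difference of all genes was 0.05 with the deposited values, 2.13 when scaled by the column total and 0.81 when scaled by the total without mitochondrial genes. Under these 2 scalings Oas1b was at 3.89 and 2.58 and Oas1c at 3.21 and 1.90, all called higher, and Oas1g was called higher too, at 2.92 and 1.60. Oas2 was called higher by the column total, at 2.82, a setting in which most genes of the tumour table were called higher. Oas1a turned to 0.91 and Oasl2 to 0.89 by the column total, neither passing, and they were at -0.42 and -0.44 without mitochondrial genes. Relative to the median of all genes, Oas1b was at 1.79, 1.76 and 1.77 under the deposited values and these scalings, Oas1c at 1.10, 1.08 and 1.09, Oas1a at -1.23, -1.22 and -1.23, and Oasl2 at -1.25, -1.24 and -1.25. In the same order Oas1g was at 0.80, 0.79 and 0.79 and Oas2 at 0.70, 0.69 and 0.69. A scaling shifts all genes of a comparison by nearly the same amount. The likeness of these relative values therefore follows from the arithmetic and says nothing about the stability of the calls. Adding the mitochondrial share to the fit left 0 members and 0 genes called, with Oas1b at 0.11 ± 1.04, Oas1c at 1.59 ± 0.79, Oas1a at -0.90 ± 0.99 and Oasl2 at -2.02 ± 1.13. Without the share, the standard error was 0.46 for Oas1b and 0.32 for Oas1c. The shares of CMV-GE11-siRE and CMV-scrR do not overlap, so this fit can hardly tell the share apart from the circuit. No conclusion is drawn from its loss of calls. Without CMV-scrR replicate 2 the count was 2 (Oas1b and Oas1c), and Oasl2 was also lost without CMV-GE11-siRE replicate 1, 2 or 4 or CMV-scrR replicate 1. Oas1a was also lost without CMV-GE11-siRE replicate 2 or CMV-scrR replicate 4. CMV-GE11-siRE replicate 2, the lowest library of its group for 6 members, and CMV-scrR replicate 2, the highest of its group for 6, are among the 4 with high Ddx3y. Without these 4, chosen after seeing the data, 3 members were called higher (Oas1b at 2.34, Oas1c at 1.28 and Oas2 at 1.58) and 0 lower, with Oas1a at -0.68 and Oasl2 at -0.42.

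**Figure D5:**
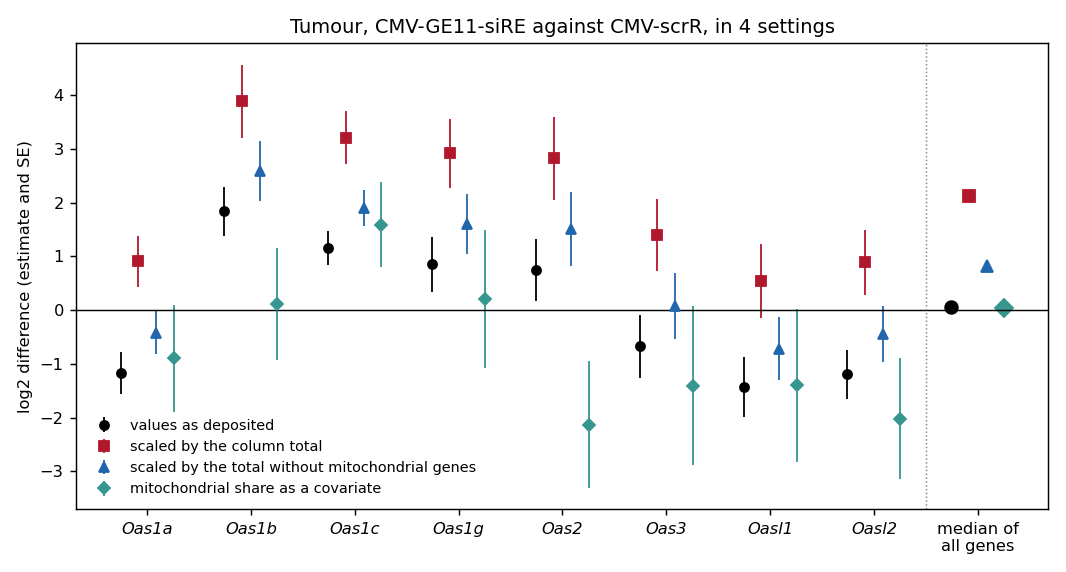
Log2 difference of CMV-GE11-siRE from CMV-scrR in tumour for each OAS member with the standard error, for the deposited values, for 2 other scalings and with the mitochondrial share added to the fit; the last column is the median of all tested genes. Oas1b and Oas1c lie above the median of all genes and Oas1a, Oasl1 and Oasl2 below it under each of the 3 scalings. A scaling shifts all genes nearly alike, so it can hardly change these positions.

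Set against each other, the circuits that share the siRNA gave no call in the family. With CMV-GE11-siRE against CMV-siRE, limma called 0 of 8 members in each of the 6 tissues, where 0.0214% of the genes were called in tumour, 0.0619% in lung, 0.0069% in liver, 0% in kidney and thymus and 0.112% in spleen. In spleen, Oas3 was higher in every CMV-GE11-siRE library than in any CMV-siRE library, at 0.66 ± 0.21 (adjusted p = 0.326), and Oasl2 likewise at 0.55 ± 0.20 (adjusted p = 0.393); groups did not overlap for 5.85% of the spleen genes. The other 6 members ranged from -0.21 to 0.31 in spleen, and 3 members (Oas1b, Oas3 and Oasl2) reached an unadjusted p under 0.05 there, beside 9.79% of the genes. Liver differences were -0.35 to 0.11 and lung differences -0.42 to 0.24, with 0 members at an unadjusted p under 0.05 in liver (7.66% of the genes), lung (9.97%) and thymus (2.81%). In lung, groups did not overlap for 2 members, Oas1a and Oas2, both lower with CMV-GE11-siRE in every library, as for 5.15% of the genes. In tumour, Oas1b was at 1.29 ± 0.46 (adjusted p = 0.11) and Oas1c at 0.84 ± 0.32 (adjusted p = 0.124), the 2 members of 8 with an unadjusted p under 0.05, beside 26.2% of the genes.

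Within an organ most members moved together from library to library. Correlations were taken across the 12 libraries of a tissue, 4 of each circuit, and so include differences between circuits and in preparation. For a member with the mean of the other 7, the correlation was 0.69 to 0.98 in the 5 organs for Oas1a, Oas1g, Oas2, Oas3, Oasl1 and Oasl2. Oas1b was at 0.83 to 0.87 in 4 organs and 0.56 in thymus. Oas1c was the loosest, from 0.02 in lung to 0.73 in thymus. In tumour the correlations were 0.11 (Oas1c) to 0.76 (Oas1g). CMV-scrR replicate 1 was the highest control library for 7 members in lung, 8 in liver, 8 in spleen and 7 in kidney. In thymus it was the highest for 0 members and replicate 3 for 6, and in tumour it was the highest for 1 and replicate 2 for 6.

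Genes outside the family were ranked by their mean correlation with it over the 5 organs, among 13109 genes, again across the libraries of all circuits. The 5 closest were Rtp4 at 0.977, Rnf213 at 0.960, Usp18 at 0.958, Irf7 at 0.953 and Ifit3 at 0.948, all known as interferon-inducible genes. In tumour alone, Ddx58 (0.85), Tango2 (0.83), Mag (0.82) and Usp18 (0.79) were among the 5 closest. Usp18, a brake on the interferon receptor, was named in the organs and in tumour.

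Genes of the same pathway were counted from lists. Among 15 interferon-stimulated effectors, 0 were called higher against CMV-scrR in the organs. In spleen 7 were called lower with CMV-GE11-siRE and 8 with CMV-siRE, in liver 6 with each circuit, and in lung 0 with CMV-GE11-siRE and 4 with CMV-siRE. Of all tested genes, 3.47% were called lower in spleen with CMV-GE11-siRE and 2.88% with CMV-siRE. The shares in the same order were 2.04% and 1.97% in liver and 0% and 0.928% in lung. The median of the 15 in spleen was -0.95 with CMV-GE11-siRE and -1.03 with CMV-siRE, and in liver it was -1.01 with CMV-GE11-siRE and -1.0 with CMV-siRE. The antiviral genes Rsad2 and Isg15 differed in spleen by -1.01 ± 0.25 and -1.34 ± 0.29 with CMV-GE11-siRE and by -2.82 ± 0.25 and -2.47 ± 0.29 with CMV-siRE. Rsad2 was the pathway gene that differed between the EGFR circuits in spleen, at 1.81 ± 0.25 (adjusted p = 0.00925).

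The next counts stand beside the same shares of all genes called lower with CMV-GE11-siRE and CMV-siRE: 3.47% and 2.88% in spleen, 2.04% and 1.97% in liver, 0% and 0.928% in lung. Of 11 interferon receptor and signalling genes, 4 were lower in spleen with CMV-GE11-siRE and 6 with CMV-siRE, 6 in liver with CMV-GE11-siRE and 5 with CMV-siRE, and 0 in lung with CMV-GE11-siRE and 3 with CMV-siRE, while 0 were higher. Of 12 sensors of double-stranded RNA and DNA, 2 were lower in spleen with CMV-GE11-siRE and 5 with CMV-siRE, 3 in liver with CMV-GE11-siRE and 2 with CMV-siRE, and 0 in lung, with 0 higher; among them was Zbp1 in spleen at -1.23 ± 0.28 (adjusted p = 0.027) with CMV-GE11-siRE and -1.31 ± 0.28 (adjusted p = 0.0188) with CMV-siRE. Of 10 genes responsive to interferon gamma, 7 were lower in spleen with CMV-GE11-siRE and 6 with CMV-siRE, 6 in liver with CMV-GE11-siRE and 5 with CMV-siRE, and 0 in lung with CMV-GE11-siRE and 8 with CMV-siRE. Cxcl9, a chemokine of that list, went the other way in liver, at 2.00 ± 0.34 (adjusted p = 0.00778) with CMV-GE11-siRE and 2.84 ± 0.34 (adjusted p = 0.00104) with CMV-siRE.

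In tumour with CMV-GE11-siRE, 9 of 15 effectors were lower and 0 higher, with a median of -1.55, and the signalling list had 3 higher and 3 lower of 11. Of the 11 sensors tested there, 2 were higher and 2 lower, and of the 10 genes responsive to interferon gamma 5 were lower. Over all tumour genes, 22.1% were called higher and 19.8% lower in that comparison. By the column total, under which 60 genes of the whole table were called lower, 0 of the 15 effectors were lower and 5 higher, with a median of 0.53 beside 2.13 for all genes. By the column total, the signalling list had 9 higher and 0 lower, and the interferon gamma list 2 higher and 0 lower. By the total without mitochondrial genes, 4 effectors were lower and 0 higher. There signalling had 4 higher and 0 lower, and interferon gamma 0 higher and 1 lower. Without the 4 libraries with high Ddx3y, 4 effectors were lower and 1 higher. Signalling then had 2 higher and 1 lower, and interferon gamma 0 higher and 3 lower of 9. Shares of all genes are not given for the last 2 settings, so these counts are a description alone. In kidney and thymus 0 genes of these lists passed in any comparison.

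Pde12, which degrades oligoadenylates, did not pass in any tissue. Of 4 further Oas1 paralogues, Oas1d and Oas1f were too low to test anywhere. Oas1h passed the filter on low values in lung and thymus, and in thymus it was called in no comparison. In lung it passed that filter through the control libraries alone, so no test is given. It was at 11.3 to 21.5 in the CMV-scrR lung libraries and at 0.946 to 7.25 in those of the EGFR circuits. That these do not overlap follows from passing the filter in this way and is not a result. Oas1e was tested in spleen, where it passed the filter on low values mainly through the control libraries, so no test is given. It had spleen values of 2.42, 10.2, 5.71 and 2.5 with CMV-GE11-siRE, 0, 1.21, 0.844 and 0.866 with CMV-siRE and 14.7, 41.2, 19.8 and 20.6 with CMV-scrR. Of 7 interferon genes, Ifng alone passed the filter, in lung and spleen. It was between 18.6 and 52.6 in lung, with overlap between all groups. In spleen it had 19.5, 20.4, 11.3 and 21.1 with CMV-GE11-siRE, 31.1, 14.7, 19.5 and 36.2 with CMV-siRE and 32, 41.8, 55.5 and 33.3 with CMV-scrR, so that the CMV-GE11-siRE libraries lay below all 4 control libraries. It was called in no comparison, and in spleen its differences were -1.13 ± 0.33 (adjusted p = 0.0611) with CMV-GE11-siRE and -0.71 ± 0.33 (adjusted p = 0.243) with CMV-siRE.

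Markers of other cell types moved with the circuits in part. Of all tested genes, 2.88% in spleen, 0.928% in lung and 1.97% in liver were called lower with CMV-siRE. With CMV-GE11-siRE the shares were 3.47%, 0% and 2.04%. Erythroid markers were lower with CMV-siRE, for 5 of 5 genes in spleen, 5 of 5 in lung and 3 of 5 in liver, and for 0 of 5 with CMV-GE11-siRE in these organs. Their summed spleen level was 465629 to 953277 with CMV-GE11-siRE, 105347 to 280348 with CMV-siRE and 805425 to 1163620 with CMV-scrR. Beside this, 5 of 8 OAS members were called lower with CMV-GE11-siRE and 7 with CMV-siRE in spleen, 5 with CMV-GE11-siRE and 4 with CMV-siRE in liver, and 0 with CMV-GE11-siRE and 1 with CMV-siRE in lung. Plasmacytoid dendritic cell markers, of cells that make much interferon, summed in spleen to 3195 to 3680 with CMV-GE11-siRE, 3729 to 5388 with CMV-siRE and 2697 to 4046 with CMV-scrR, with 0 of 5 called. Macrophage markers summed in spleen to 20957 to 30150 with CMV-GE11-siRE, 24357 to 27942 with CMV-siRE and 17856 to 32311 with CMV-scrR, with 1 of 6 called higher with CMV-siRE. In lung, 4 of 6 macrophage markers were higher with CMV-siRE. The numbers of all genes called higher with CMV-siRE in spleen and lung are given in the last paragraph. In tumour with CMV-GE11-siRE, 4 of 6 macrophage markers were called lower and 4 of 6 lung epithelial markers higher, beside 19.8% of all tumour genes called lower and 22.1% called higher. By the column total, 0 of the macrophage markers were lower and 2 higher, and 4 of the lung epithelial markers were higher. The part of these cell types in the values of the family was not tested.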

How the data were processed

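Gene expression was measured by RNA sequencing of total RNA (TRIzol extraction, TruSeq RNA libraries, per the labels' protocols) in 72 libraries. The deposited tables hold a normalized signal value per gene and library, scaled within each tissue by the authors; DESeq2 is named in the submitters' processing notes without a role. For the aligner, the counter and the genome build, the sources used here give nothing. Gene identifiers were matched to GENCODE M21 (35968 of 36047). Since 50.3% to 72.6% of low values per library were multiples of its recurring step (values up to 20 steps, tolerance 0.1 of a step), read counts were not recovered and no count model was used.

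Values were tested by limma-trend (limma 3.58.1, R 4.3.3) on log2(value + 1). Tested genes reached 10 in 4 or more of 12 libraries. The fit had 1 mean per circuit and no covariate, with Benjamini-Hochberg adjustment at 0.05. Fold differences on this scale understate the change of low genes. Tests were made within a tissue. Python 3.11.15, numpy 2.4.6 and pandas 2.3.3 made the summaries, and promoter letters came from RefSeq (GRCm38.p6). The fit was checked on simulated data for CMV-siRE against CMV-scrR. It recovered 25% of changes of 1 log2 unit in tumour, 36% in thymus and 46% in kidney. In liver, spleen and lung it recovered 59%, 62% and 67% of them. Changes of 2 log2 units were recovered at 69% in tumour and 83% to 92% in the organs. A lack of calls, in tumour, thymus and kidney above all, therefore does not show a lack of change. All 8 members were named in every tissue; other pathway genes were named if they passed, at most 4 a list by adjusted p, and genes of like pattern were the 5 with the highest correlation. Some genes that this rule names are not reported here. The members and lists were chosen with earlier results of these data known. Clock genes were chosen after their values were seen. Alternatives were a pseudocount of 0.1, no filter, only the 8 libraries compared, a replicate block, other scalings, the mitochondrial share as a covariate, and leaving out each library; leaving out CMV-scrR replicates 1 and 3 together, and in tumour the 4 libraries with high Ddx3y, was chosen after seeing the data.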

Additional observations from a re-analysis of the deposited data

Results flagged for a closer look

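In each tissue and circuit the 4 libraries of a member were checked for 1 that stood apart, by its gap to the nearest other library over the range of the group, against Dixon's critical value. Of 144 such groups 7 passed it, close to the 1 in 20 that chance gives. In spleen, Oasl1 was high in CMV-scrR replicate 1, at 2287, and Oas1a was low in CMV-GE11-siRE replicate 1, at 744. In liver, Oas2 and Oas1b were high in CMV-scrR replicate 1, at 739.7 and 244. In thymus, Oas1g was high in CMV-scrR replicate 3, at 133. In tumour, Oasl1 was high in CMV-scrR replicate 2, at 85.1, and Oas1a was low in CMV-GE11-siRE replicate 2, at 89.2. Without spleen CMV-scrR replicate 1 alone, 5 members were still called lower with CMV-GE11-siRE and 7 with CMV-siRE, and without thymus CMV-scrR replicate 3 the count stayed at 0 with each circuit; other losses are given with the results.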

How the results depend on the processing

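Of 26 member calls, 6 were kept in every setting tried, and 2 changed sign in tumour by the column total, which moved the median of all genes to 2.13. Relative to that median both stayed near their first values, which a scaling that shifts all genes nearly alike fixes in advance. In tumour with CMV-GE11-siRE against CMV-scrR, 4 members passed, and 2 to 4 did with 1 library left out. With the mitochondrial share in the fit 0 did, but the share can hardly be told apart from the circuit. The column total turned Oas1a to 0.91 and Oasl2 to 0.89 while the covariate turned Oas2 to -2.13 ± 1.19. For CMV-GE11-siRE against CMV-siRE in tumour the count of 0 became 4 by the column total and 2 by the total without mitochondrial genes. These scalings moved the median of all genes to 1.64 and 0.63. Relative to the median by the column total, Oas1b was at 1.24, Oas1c at 0.79, Oas2 at 0.53 and Oas1g at 0.27. The covariate, again hardly told apart from the circuit, turned Oas1b to -0.13 ± 0.89, Oas1g to -0.21 ± 1.10 and Oas2 to -1.79 ± 1.01. Leaving out CMV-GE11-siRE replicate 3 turned Oas1g to -0.023 (the others gave up to 0.73). In lung, the 1 call with CMV-siRE became 0 when just the 8 libraries compared were fitted and without CMV-scrR replicates 1 and 3, and 0 to 3 with 1 library left out; the 0 calls with CMV-GE11-siRE became 0 to 4. In liver, the 4 calls with CMV-siRE became 2 to 4 with 1 library left out and 0 without CMV-scrR replicates 1 and 3, and the 5 with CMV-GE11-siRE also became 0 without these 2 controls. In kidney, fitting just the 8 libraries called 1 member (Oas1a) with CMV-siRE. In spleen, leaving out CMV-scrR replicates 1 and 3 gave 2 calls with CMV-GE11-siRE in place of 5 and 4 with CMV-siRE in place of 7. The cause of these changes was not tested.

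The replicate numbers were not found to pair the libraries. In 0 of 18 comparisons was the correlation of same-numbered libraries over 0.1 for every pair (range -0.28 to 0.27). Of the 72 pairs in these comparisons, 13 held a library that correlated best with its own number. With the replicate block the 1 call in lung became 0, and the counts in spleen were 4 with CMV-GE11-siRE and 5 with CMV-siRE, in liver 3 with CMV-siRE, and in tumour 3.

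Scaling by the column total moved the split of all called genes (higher and lower) with CMV-siRE from 277 and 462 to 647 and 354 in spleen and from 78 and 150 to 123 and 119 in lung, and with CMV-GE11-siRE in spleen from 367 and 556 to 529 and 398; it moved tumour with CMV-GE11-siRE from 3107 and 2783 to 11965 and 60. Of the organ calls in the family, Oas1g in liver with CMV-siRE was the 1 lost under the other scalings. Depth is unknown beyond the normalized totals, so no counting interval was given.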
